A study of Mus musculus with 6 samples.

Results

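Cholesterol genes were examined in differentiated mouse preadipocytes in which deletion of Tcf7l2 had been induced. A set of 32 genes, chosen by symbol for their roles in cholesterol synthesis, in its control by SREBP2, in uptake and trafficking, and in efflux and oxysterol formation, was read from a count table of 49671 Ensembl genes. All 32 were found and all 32 passed the filter on low counts, which left 14946 genes for testing. Of the 32, 18 belong to synthesis, 4 to SREBP2 control, 6 to uptake and trafficking, and 4 to efflux and oxysterols.

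All cells came from 1 immortalised line, made from sorted stromal cells, positive for CD34, Sca1 and CD29 and negative for CD31, CD45 and Ter-119, of inguinal white fat of 3 month old C57BL/6 mice with Tcf7l2 F/F alleles. Both groups carried these floxed alleles, SV40 large T antigen and CreERT2, a Cre recombinase that acts once 4-hydroxytamoxifen is given, each delivered by retrovirus. Control cells (3 libraries, genotype label "wild type") received ethanol and knockout cells (3 libraries, "Tcf7l2 Knock out cells") received 4-hydroxytamoxifen, for 24 h, 2 days before differentiation began. Differentiation used 1 µM dexamethasone, 0.5 mM isobutylmethylxanthine and 5 µg/mL insulin (the labels print the first and the last of these without the micro sign) for 2 days, then insulin in medium with 10% serum, up to day 8. The labels also name an agent at 5 nM, written W1929, W1930 and W1931 for control replicates 1 to 3 and W1932, W1933 and W1934 for knockout replicates 1 to 3. The labels do not say whether those codes stand for different agents. Deletion and 4-hydroxytamoxifen coincide in every library, so their effects cannot be told apart. As separate cultures are not named in the labels, the p-values refer to variation among these 6 libraries only, possibly technical variation.

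Cells make cholesterol from acetyl-CoA through mevalonate, the isoprenoid farnesyl pyrophosphate, squalene and lanosterol. The transcription factor SREBP2 switches the genes of this route on when sterols in the endoplasmic reticulum run low: its escort SCAP then carries it to the Golgi for cleavage, and the INSIG proteins hold SCAP back when sterols are plentiful. Liver X receptors respond to oxysterols and switch on the exporters ABCA1 and ABCG1. Fat cells hold much of their free cholesterol at the lipid droplet and take up a good part of it from lipoproteins.

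Total counts ran from 26621293 to 33484764 per library, and a member had between 86 counts (Cyp27a1) and 31576 counts (Npc2) in a library. Levels are given as CPM, counts relative to library size after TMM scaling. Control replicate 3 and knockout replicate 2 stood apart from the other 4 libraries on the second principal component (-15.1 and -14.1, the others above 0), so results that rest on them are also given without them. Tcf7l2 itself was at 7.71, 6.13 and 9.11 CPM in control and 5.65, 6.85 and 5.86 CPM in knockout libraries (log2 -0.32, SE 0.14; edgeR adjusted p = 0.125). Without control replicate 2 its adjusted p was 0.0322 (log2 -0.46) and without control replicate 3 it was 0.377 (log2 -0.19), the lowest and the highest over the alternatives. The floxed part of the gene is not named in the labels, so whole-gene counts do not check the genotype.

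Adipocyte genes were higher in knockout cells. All 10 adipocyte markers examined, among them Adipoq, Plin1 and Fabp4, were called higher, beside 11.9% of all tested genes. Their summed level ran from 6961 to 7200 CPM in control and from 10202 to 12216 CPM in knockout libraries. Fabp4 made up most of that sum, at a mean of 4391 CPM in control and 6869 CPM in knockout libraries. Of 8 preadipocyte markers 0 were called (summed level 3415 to 3629 CPM in control and 3478 to 3600 CPM in knockout libraries; edgeR adjusted p = 0.0539 for Ly6a, the lowest of the list). At an unadjusted p under 0.05, 3 of these 8 passed (Ly6a higher, Pdgfra and Itgb1 lower). The leukocyte list summed to 4.43 to 5.45 CPM in control and 4.75 to 5.71 CPM in knockout libraries, with 0 of its 3 tested genes called by edgeR, 0 also at an unadjusted p under 0.05, and the defining genes Adgre1 and Cd3e at 0 counts in all 6. The endothelial and red cell list summed to 23.2 to 25.1 and 26.6 to 28.2 CPM, nearly all of it from Kdr and Tek, with Kdr the 1 called gene and Hbb-bs at 0. Over all tested genes 22.4% were called in either direction, so 0 calls in lists as short as the preadipocyte and leukocyte lists say little. The part of adipocyte maturity in the cholesterol results was not tested. In these bulk libraries, more cells of a type and more RNA per cell cannot be told apart.

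Promoter sequences are shown for 2 of the genes that rose in knockout cells (Hmgcs1 and Insig1) and 2 that fell (Mvk and Soat1). Whether SREBP2 acts at these stretches was not tested. Each is 150 bases from RefSeq (GRCm38.p6), read 5′ to 3′ on the gene's strand and ending before any annotated transcribed base of that gene. Overlap with transcripts of other genes was not checked. Capitals mark the 9-base SREBP element TCACNCCAC, the NF-Y box CCAAT and the E-box CACGTG, on either strand.
Hmgcs1, chr13:119690201-119690350, plus strand: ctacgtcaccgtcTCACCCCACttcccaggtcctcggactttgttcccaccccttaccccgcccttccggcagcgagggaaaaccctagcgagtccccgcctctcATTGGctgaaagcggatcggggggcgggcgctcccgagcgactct
Insig1, chr5:28071213-28071362, plus strand: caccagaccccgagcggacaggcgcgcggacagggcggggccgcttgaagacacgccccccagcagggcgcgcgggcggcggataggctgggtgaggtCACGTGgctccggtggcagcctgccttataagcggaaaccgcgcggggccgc
Mvk, chr5:114444119-114444268, plus strand: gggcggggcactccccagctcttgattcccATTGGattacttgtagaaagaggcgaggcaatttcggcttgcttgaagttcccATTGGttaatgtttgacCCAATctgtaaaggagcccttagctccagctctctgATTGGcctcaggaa
Soat1, chr1:156474332-156474481, minus strand: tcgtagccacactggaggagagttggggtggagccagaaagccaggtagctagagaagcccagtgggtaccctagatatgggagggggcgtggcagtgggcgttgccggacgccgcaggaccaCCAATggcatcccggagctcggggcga

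NF-Y boxes stood in promoters of genes that rose, fell or were not called alike, 4 of them in the Mvk stretch. Of the 32 genes, 25 had RefSeq promoter windows (31 windows, each 250 bases before to 50 after a start), and Abcg1, Fdft1, Fdps, Npc1, Scarb1, Sqle and Stard4 had no entry. The box CCAAT was in 21 of the 31 windows (67.7%) and in 37.8% of the 13589 windows of tested genes. The Sp1 box GGGCGG was in 26 of the 31 (83.9%, against 61.6%) and the E-box in 7 (22.6%, against 9.72%). These windows belonged to 23 and 6 of the 25 genes. The windows of Scap overlap, and its E-box is the same site counted in each. The element TCACNCCAC was in 1 window, that of Hmgcs1, 137 to 129 bases before the start (3.23%, against 1.12%). The TCF core CTTTGAT was in 1 window, that of Npc2 (3.23%, against 2.52%), and the liver X receptor repeat, a direct repeat of AGGTCA with a 4-base gap, in 0 of 31 and in 0 of the 13589. Both strands were searched, the GGGCGG and TCACNCCAC letters do not contain one another, and a match is a description of letters only. Only these exact letters were searched, so a window without a match may still hold a variant of the site. As the liver X receptor repeat was in 0 of the 13589 windows, its absence from the members could not set them apart from other genes.

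In knockout cells 11 of the 32 genes rose and 3 fell (34.4% and 9.38% of the members, beside 11.9% and 10.5% of all tested genes; 22.4% of tested genes were called in either direction). A gene was called at an edgeR adjusted p under 0.05 over all tested genes. The median log2 fold change of the 32 was 0.061, beside -0.0017 for all tested genes. Of the 11 risen genes, 3 (Abcg1, Insig1 and Pmvk) exceeded 1.5-fold, as did 590 of the 1778 risen genes among all tested. The groups did not overlap in 14 members that were higher and 6 that were lower in knockout libraries, where 18.5% and 19.3% of all tested genes did so (37.9% in either direction). For any gene whose groups do not overlap, an exact 2-sided permutation test of CPM gives p = 0.1, the smallest that 3 libraries against 3 allow. Without control replicate 3 and knockout replicate 2, 11 members were higher and 5 lower, where 26.4% of all tested genes were called in either direction.

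**Figure D1:**
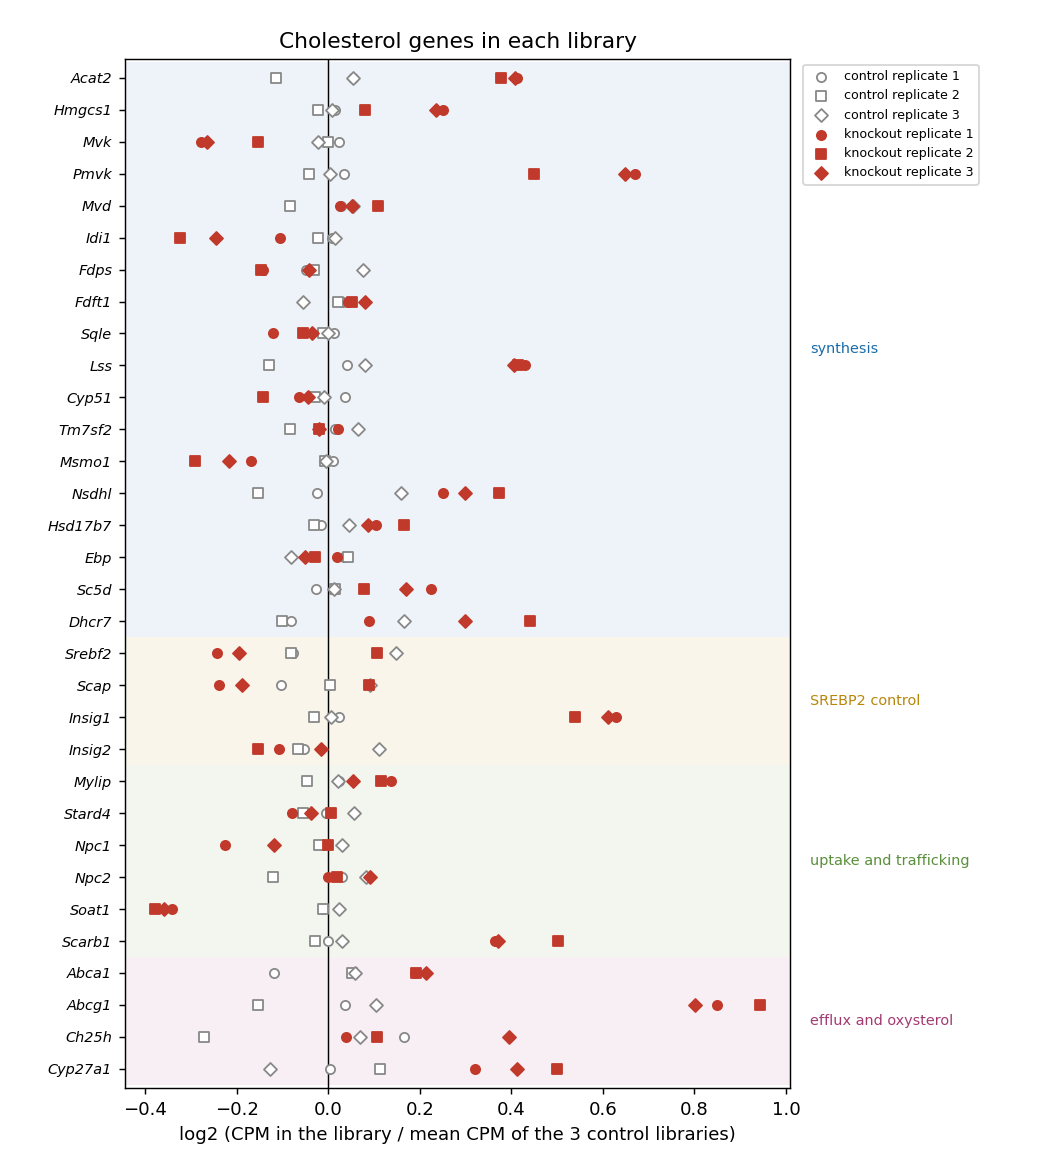
Each row is a gene and each point a library, placed by the log2 ratio of its CPM to the mean of the 3 control libraries (open grey: control; filled red: knockout; shape: replicate; shading: role). Abcg1, Pmvk and Insig1 lie farthest to the right and Soat1 to the left, while Srebf2 and Scap are spread by library within each group.

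Among the 18 synthesis genes, 6 rose, 2 fell and 10 were not called (median log2 fold change 0.061). That was 33.3% higher and 11.1% lower, beside 11.9% and 10.5% of all tested genes. The lower share was thus near that of all tested genes. Some neighbouring steps moved in opposite directions and others in the same direction. In the route to farnesyl pyrophosphate, Pmvk was 1.51-fold higher while Mvk, the step before it, was 1.17-fold lower, and the first steps, Acat2 and Hmgcs1, both rose. The summed level of the 18 was 2280 to 2359 CPM in control and 2450 to 2581 CPM in knockout libraries, of which Hmgcs1 made up 25.5% to 25.9% and 25.9% to 27.6%.

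Pmvk (ENSMUSG00000027952, chr3:89454541-89469013), whose enzyme adds a phosphate group to phosphomevalonate, was at 80.1, 76 and 78.4 CPM in control and 124, 107 and 122 CPM in knockout libraries. The groups were well apart, and knockout replicate 2 was the lowest of its group. On the log2 scale the rise was 0.59 (SE 0.060; edgeR adjusted p = 1.12e-05). Acat2 (ENSMUSG00000023832, chr17:12942890-12960747), which encodes the cytosolic thiolase that joins acetyl-CoA units, was at 108, 95.8 and 108 CPM in control and 138, 135 and 138 CPM in knockout libraries. It rose 1.32-fold (log2 0.40, SE 0.053; adjusted p = 1.02e-04), with every knockout library above every control library. Its transcripts share a stretch of 1477 bases at 97.7% identity with Acat3 (37 counts over all libraries) and 445 bases at 98.7% with Tcp1 (60997 counts), so its level is uncertain to the extent that reads were divided.

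Hmgcs1 (ENSMUSG00000093930, chr13:119690379-119708260) encodes the cytosolic HMG-CoA synthase and was the most abundant synthesis gene. Its level was 605, 590.0 and 602 CPM in control and 713, 633 and 705 CPM in knockout libraries, a 1.14-fold rise (log2 0.19, SE 0.052; edgeR adjusted p = 0.0185). Knockout replicate 2 lay nearest to the controls. The rise did not pass without control replicate 1 (adjusted p = 0.0584), control replicate 2 (0.0746), knockout replicate 1 (0.0667) or knockout replicate 3 (0.102), with adjusted p from 4.33e-04 to 0.102 over all alternatives. Mvk (ENSMUSG00000041939, chr5:114444269-114460591), the mevalonate kinase gene, was at 55.7, 54.7 and 54.0 CPM in control and 45.2, 49.3 and 45.6 CPM in knockout libraries. All knockout libraries were lower (log2 -0.23, SE 0.054; adjusted p = 0.0074).

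The other genes of this stretch were not called. Mvd, the decarboxylase that yields isopentenyl pyrophosphate, was at 58.4 ± 2.92 and 61.0 ± 1.80 CPM (SD, n = 3 in each group). Fdps, farnesyl pyrophosphate synthase, was at 29.1, 29.4 and 31.7 CPM in control and 27.2, 27.2 and 29.2 CPM in knockout libraries, and Idi1, the isopentenyl isomerase, at 4.03 ± 0.0533 and 3.45 ± 0.269 CPM. Both of these have pseudogenes of at least 95% identity. Gm13502 (4 counts over all libraries) is identical to Idi1 over 684 bases, and Gm3571 (76 counts) is 98.9% identical to Fdps over 1062 bases. On the same strand, Gm43738 (0 counts) covers 26.7% of the exonic bases of Fdps. The low levels of Idi1 and Fdps are therefore uncertain. Their log2 fold changes were -0.11 (SE 0.063) for Fdps and -0.22 (SE 0.12) for Idi1.

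Of the 3 genes that make squalene and lanosterol, 1 rose. Lss (ENSMUSG00000033105, chr10:76531588-76557138), lanosterol synthase, was at 171, 152 and 176 CPM in control and 224, 222 and 220.3 CPM in knockout libraries. The knockout libraries were nearly equal and all above the controls (1.34-fold, log2 0.42, SE 0.055; edgeR adjusted p = 9.77e-05). Sqle, the squalene epoxidase gene, a rate-limiting step of the route, was at 173, 169.5 and 171 CPM in control and 157, 165 and 167 CPM in knockout libraries, and was not called (log2 -0.070, SE 0.045; adjusted p = 0.302). Fdft1, squalene synthase, was at 77.4 ± 2.52 and 80.7 ± 1.06 CPM (SD, n = 3) and was not called. On the opposite strand, Ctsb covers 18.3% of the exonic bases of Fdft1 and had 220412 counts against 13955 for Fdft1, so that level holds only if the counting used strand.

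Among the 8 genes between lanosterol and cholesterol, 2 rose, 1 fell and 5 were not called. These were 25% and 12.5%, beside 11.9% higher and 10.5% lower of all tested genes. Nsdhl (ENSMUSG00000031349, chrX:72918557-72958514), a sterol 4-demethylation dehydrogenase, was at 64.6, 59.1 and 73.3 CPM in control and 78.1, 85.0 and 80.7 CPM in knockout libraries (1.24-fold higher, log2 0.31, SE 0.071; edgeR adjusted p = 0.00705). Msmo1 (ENSMUSG00000031604, chr8:64718139-64733792), the oxidase of the same demethylation, went the other way: 188, 185 and 186 CPM in control against 166, 152 and 160.3 CPM in knockout libraries (1.17-fold lower, log2 -0.22, SE 0.046; adjusted p = 0.00326). The 2 genes thus moved oppositely, each without overlap between the groups.

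Sc5d (ENSMUSG00000032018, chr9:42251595-42264256), lathosterol oxidase, was at 205, 211 and 211 CPM in control and 244, 221 and 235 CPM in knockout libraries, a small rise (1.12-fold; edgeR adjusted p = 0.0328). Its call was lost without control replicate 1 (adjusted p = 0.123), control replicate 2 (0.0781), control replicate 3 (0.0557), knockout replicate 1 (0.12) or knockout replicate 3 (0.118), and its adjusted p ran from 0.00221 to 0.123 over the alternatives. Dhcr7, the reductase of the last step of one branch, was at 13.5, 13.4 and 16.1 CPM in control and 15.3, 19.5 and 17.6 CPM in knockout libraries. Control replicate 3 lay above knockout replicate 1, and the gene was not called (log2 0.29, SE 0.10; adjusted p = 0.0593). Without control replicate 3 the adjusted p was 0.0272, without knockout replicate 1 it was 0.0144, without control replicate 3 and knockout replicate 2 together 0.0227 and without a filter on low counts 0.00651; over all alternatives it ran from 0.00651 to 0.228.

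Cyp51, lanosterol demethylase and the second most abundant synthesis gene, was at 366, 350.3 and 355 CPM in control and 342, 324 and 346 CPM in knockout libraries. The groups did not overlap, but the difference did not pass (log2 -0.083, SE 0.047; edgeR adjusted p = 0.237). Hsd17b7 was at 76.7 ± 2.17 and 83.3 ± 2.35 CPM (SD, n = 3), Ebp at 56.0 ± 2.70 and 55.2 ± 1.37 CPM and Tm7sf2 at 24.3 ± 1.27 and 24.2 ± 0.396 CPM. These 3 genes encode a ketosteroid reductase, a sterol isomerase and a sterol reductase of the route, and none of the 3 was called by edgeR, with an unadjusted p under 0.05 for Hsd17b7 alone. Tm7sf2 shares 12.1% of its exonic bases with Vps51 on the same strand. Stretches of at least 200 bases at 95% identity or more were shared by Msmo1 with 10 other genes and by Dhcr7 with 22.

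**Figure D2:**
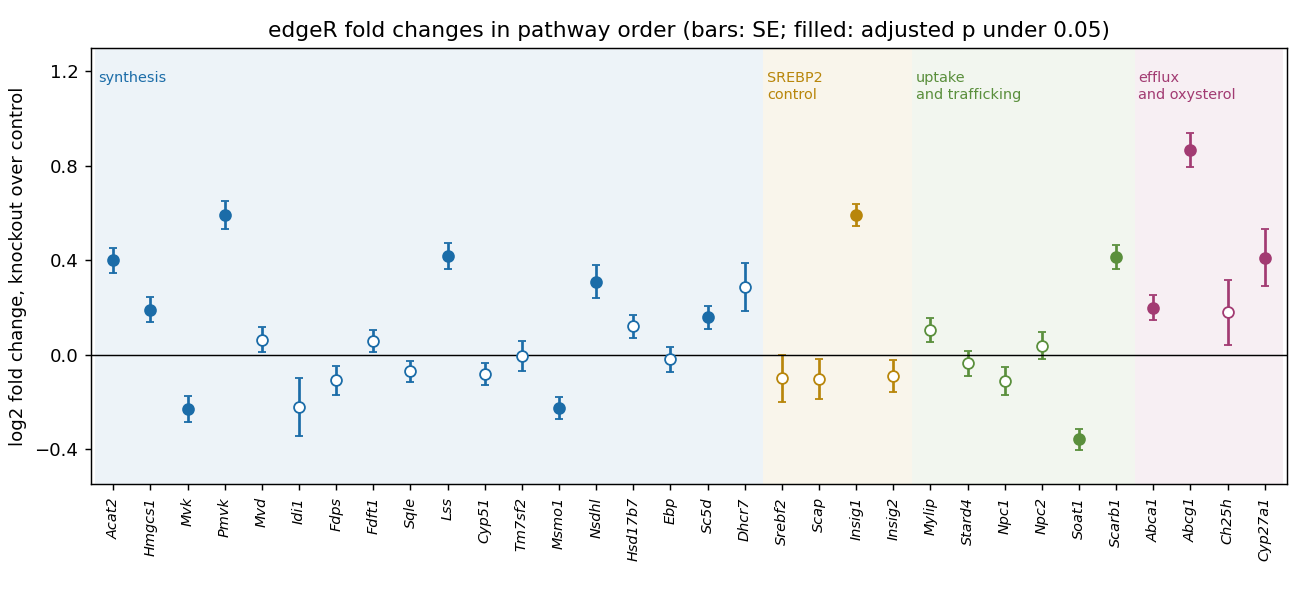
The log2 fold change of each gene (knockout over control, vertical axis) is plotted in pathway order, with bars for 1 SE and filled points for genes called by edgeR. Within synthesis the filled points lie on both sides of 0, from -0.23 for Mvk to 0.59 for Pmvk, and all 4 efflux and oxysterol genes lie above 0.

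Of the 4 SREBP2 control genes, Insig1 rose and the other 3 were not called (25% higher, beside 11.9% of all tested genes). Insig1 (ENSMUSG00000045294, chr5:28071363-28078662), the retention protein whose own gene is a target of SREBP, was at 485, 467 and 479.5 CPM in control and 738, 694 and 728 CPM in knockout libraries. The lowest knockout library was far above the highest control library. The rise was 1.51-fold (log2 0.59, SE 0.046; edgeR adjusted p = 1.67e-06), and it was called under every alternative, with log2 fold changes of 0.57 to 0.62.

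Insig2, its paralog, was at 32.8, 32.6 and 36.8 CPM in control and 31.6, 30.6 and 33.7 CPM in knockout libraries, with overlapping groups (log2 -0.090, 95% interval -0.23 to 0.053; edgeR adjusted p = 0.377). Its log2 fold change was -0.037 without control replicate 3, -0.060 without knockout replicate 2 and -0.0029 without both. Per kb of exon, Insig1 exceeded Insig2 by 16.6, 16.1 and 14.6 times in the control libraries and by 26.2, 25.4 and 24.3 times in the knockout libraries.

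Srebf2, the gene of SREBP2, was at 61.1, 60.9 and 71.4 CPM in control and 54.4, 69.4 and 56.3 CPM in knockout libraries. Scap, its escort, was at 83.4, 89.9 and 95.4 CPM in control and 76, 95.3 and 78.6 CPM in knockout libraries. In each group both genes were highest in the library that stands apart, control replicate 3 or knockout replicate 2. Neither was called by edgeR (Srebf2 log2 -0.10, 95% interval -0.32 to 0.12, adjusted p = 0.532; Scap log2 -0.10, 95% interval -0.29 to 0.083, adjusted p = 0.434). Without knockout replicate 2, both were called lower (Srebf2 log2 -0.22, adjusted p = 0.0298; Scap log2 -0.21, adjusted p = 0.0113). Without control replicate 3 and knockout replicate 2 together, Scap was called lower (log2 -0.16, adjusted p = 0.0234) and Srebf2 was not (log2 -0.14, adjusted p = 0.0523). Over all alternatives the adjusted p of Srebf2 ran from 0.0298 to 0.892 and that of Scap from 0.0113 to 0.786.

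**Figure D3:**
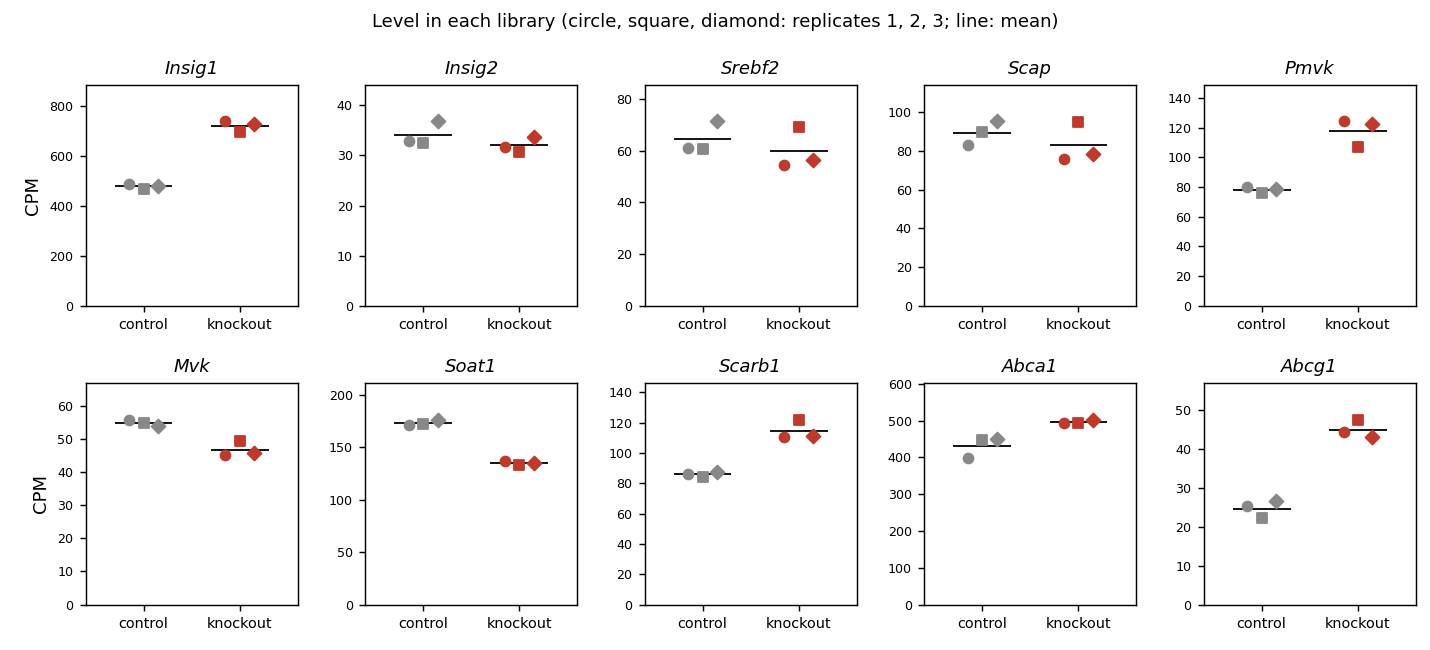
The level of 10 genes is plotted for each library (vertical axis, CPM, starting at 0; circle, square and diamond for replicates 1, 2 and 3; line at the group mean). Insig1, Pmvk, Scarb1 and Abcg1 separate upwards and Mvk and Soat1 downwards, whereas in Srebf2 and Scap the square of the knockout group lies level with the upper control points.

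In uptake and trafficking, 1 of 6 genes rose, 1 fell and 4 were not called. The risen and the fallen gene were each 16.7%, beside 11.9% higher and 10.5% lower of all tested genes. Scarb1 (ENSMUSG00000037936, chr5:125277087-125341094), a receptor that takes cholesteryl esters from high-density lipoprotein and also passes free cholesterol outwards, was at 85.8, 84.1 and 87.6 CPM in control and 111, 122 and 111 CPM in knockout libraries. All knockout libraries lay above all controls (1.33-fold, log2 0.41, SE 0.051; edgeR adjusted p = 5.75e-05). Soat1 (ENSMUSG00000026600, chr1:156424525-156474331), the enzyme that esterifies cholesterol for storage, was at 172, 172 and 176 CPM in control and 137, 133 and 135 CPM in knockout libraries. It showed the largest fall of the 32 (1.28-fold lower, log2 -0.36, SE 0.043; adjusted p = 4.77e-05), and the spread within each group was a small part of the gap. Both calls held in every alternative.

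The remaining 4 concern lipoprotein receptor turnover, cytosolic transport and exit from the lysosome. Mylip, a ubiquitin ligase that marks lipoprotein receptors for degradation and a liver X receptor target, was at 56.3, 53.6 and 56.2 CPM in control and 60.9, 60.0 and 57.5 CPM in knockout libraries. The groups did not overlap, yet the difference did not pass (log2 0.10, 95% interval -0.0066 to 0.21; edgeR adjusted p = 0.173). Stard4, a sterol carrier, was at 52.7 ± 2.06 and 51.4 ± 1.54 CPM (SD, n = 3), and Npc2, the soluble lysosomal sterol carrier, at 920.4 ± 65.7 and 945 ± 32.2 CPM. Npc1, the membrane protein that receives sterol from NPC2, was at 58.2, 57.8 and 59.9 CPM in control and 50.1, 58.6 and 54.0 CPM in knockout libraries (log2 -0.11, SE 0.060; adjusted p = 0.217). Without knockout replicate 2, the library in which it overlapped the controls, Npc1 was called lower (log2 -0.17, adjusted p = 0.0309), as it was without control replicate 3 and knockout replicate 2 together (log2 -0.16, adjusted p = 0.0407). Its adjusted p ran from 0.0309 to 0.571 over the alternatives. The median log2 fold change of the 6 was 0.00055.

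Among the 4 efflux and oxysterol genes, 3 rose and 1 was not called (median log2 fold change 0.31). That was 75% higher, beside 11.9% of all tested genes. Abcg1 (ENSMUSG00000024030, chr17:31057675-31117988), which exports sterol to high-density lipoprotein, was at 25.3, 22.2 and 26.6 CPM in control and 44.5, 47.5 and 43.0 CPM in knockout libraries. This was the largest change of the 32, with a wide gap between the groups (1.82-fold, log2 0.87, SE 0.072; edgeR adjusted p = 2.33e-06). Over the alternatives its log2 fold change ran from 0.79 to 0.91, called in each.

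Abca1 (ENSMUSG00000015243, chr4:53030787-53159895), which loads cholesterol onto lipid-poor apolipoproteins, was at 398, 448 and 450.1 CPM in control and 493, 494 and 501 CPM in knockout libraries. The knockout libraries were close together and above the controls, of which replicate 1 was the lowest (1.15-fold, log2 0.20, SE 0.053; edgeR adjusted p = 0.0158). Without control replicate 1 the gene was not called (log2 0.14, adjusted p = 0.0936), nor without knockout replicate 3 (adjusted p = 0.0743), with adjusted p of 5.48e-04 to 0.0936 over the alternatives. Per kb of exon, Abca1 exceeded Abcg1 by 11.1, 14.2 and 11.9 times in control and by 7.80, 7.32 and 8.21 times in knockout libraries.

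Cyp27a1 and Ch25h encode hydroxylases that make oxysterols, and both were scarce. Cyp27a1 (ENSMUSG00000026170, chr1:74713574-74737892) was at 3.54, 3.83 and 3.24 CPM in control and 4.41, 5.00 and 4.71 CPM in knockout libraries (1.33-fold, log2 0.41, SE 0.12; edgeR adjusted p = 0.0265). The groups did not overlap, but the call was lost by DESeq2 (adjusted p = 0.0751) and without control replicate 1 (0.0884), control replicate 3 (0.0878), knockout replicate 2 (0.0707), knockout replicate 3 (0.077) or control replicate 3 and knockout replicate 2 together (0.137), and its adjusted p over the alternatives ran from 0.0228 to 0.137. Ch25h was at 5.51, 4.07 and 5.16 CPM in control and 5.05, 5.29 and 6.46 CPM in knockout libraries, overlapping and not called (log2 0.18, 95% interval -0.12 to 0.48). Its log2 fold change was 0.058 without control replicate 2, 0.069 without knockout replicate 3 and 0.28 without control replicate 1.

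Levels of different genes were compared per kb of exon. In control cells Npc2 (169 CPM per kb), Insig1 (154) and Hmgcs1 (130.4) were the highest of the 32, followed by Cyp51 (80.9) and Pmvk (45.6). Idi1 (1.15), Cyp27a1 (1.63) and Dhcr7 (2.46) were the lowest. In knockout cells Insig1 (233 ± 7.46 CPM per kb; SD, n = 3) stood above Npc2 (174 ± 5.92), whereas in control cells Npc2 (169 ± 12.1) and Insig1 (154 ± 3.08) differed by little more than their spread. Sc5d (43.0 ± 0.676), Abca1 (41.7 ± 2.83) and Acat2 (40.7 ± 2.66) were neighbours in control cells that did not differ beyond their spread. Srebf2 and Scap were among the lower genes, at 8.97 ± 0.837 and 12 ± 0.805 CPM per kb. The lengths join all annotated exons, retained introns included, which lowers the value of genes such as Lss (10787 bases).

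**Figure D4:**
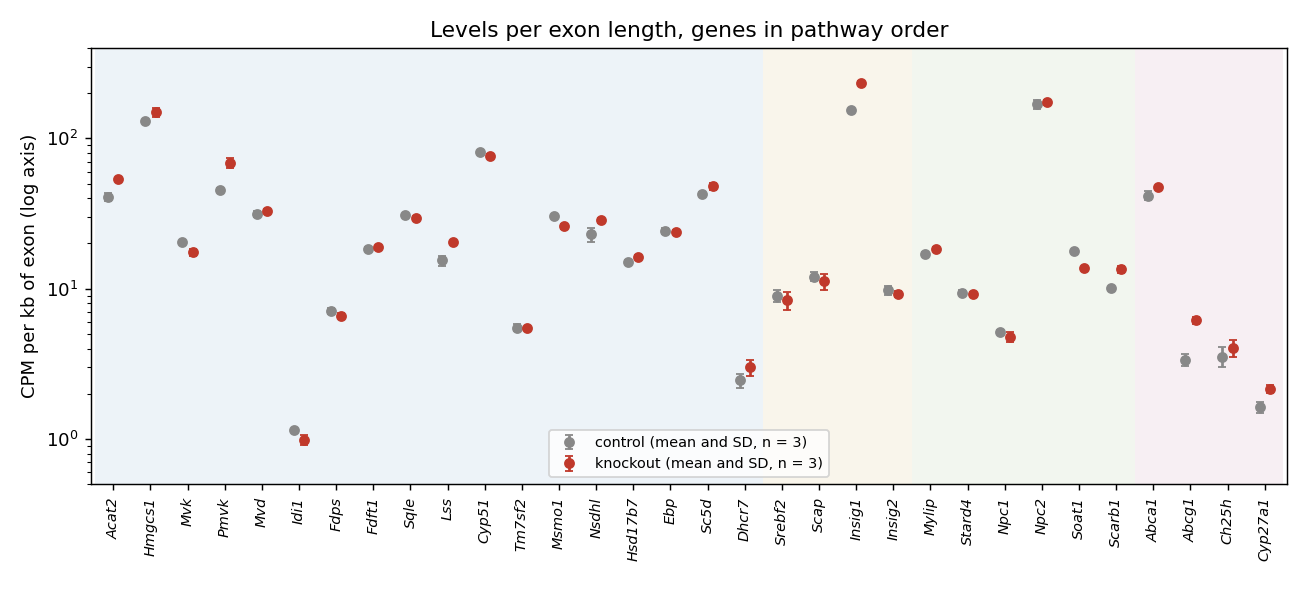
Mean CPM per kb of exon (log axis) with SD over the 3 libraries of each group, genes in pathway order with the roles shaded as synthesis, SREBP2 control, uptake and trafficking, and efflux and oxysterol from left to right. Insig1 and Npc2 are the highest points and Idi1 the lowest in both groups.

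Around the 32, 47 other genes of sterol metabolism were listed, of which 1 (Spring1) was not matched and 1 (Abcg4) was too low to test. Of the 45 tested, 12 rose, 7 fell and 26 were not called (median log2 fold change 0.042). That was 26.7% higher and 15.6% lower, beside 11.9% and 10.5% of all tested genes. In precursor supply and side branches, 5 of 12 rose and 2 fell (41.7% and 16.7%). Acly, which makes cytosolic acetyl-CoA from citrate, rose from 844 ± 62.2 to 1247 ± 56.0 CPM (1.48-fold), and Por, the electron donor of the cytochrome P450 enzymes, from 107 ± 7.88 to 154 ± 16.2 CPM (1.44-fold). Erg28, a scaffold of the sterol demethylation enzymes, fell from 55.4 ± 3.67 to 40.5 ± 2.39 CPM (1.37-fold). All SDs here are over n = 3 libraries, and these 3 genes had edgeR adjusted p of at most 4.44e-04.

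In SREBP processing and sterol-regulated degradation, 1 of 9 tested genes rose and 2 fell. These were 11.1% and 22.2%, beside 11.9% and 10.5% of all tested genes. Srebf1, which encodes the SREBP of fatty acid synthesis and is a liver X receptor target, rose 1.57-fold. Its levels were 226, 218 and 255 CPM in control and 348, 409.5 and 341 CPM in knockout libraries (log2 0.65, SE 0.079; edgeR adjusted p = 1.67e-04), highest within each group in the libraries that stand apart. Erlin1, which takes part in the degradation of sterol-regulated membrane proteins, was lower (log2 -0.22; edgeR adjusted p = 0.0137). Its call was lost without control replicate 1 (0.0769), and its adjusted p ran from 0.00719 to 0.0769 over the alternatives.

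In liver X receptor signalling, efflux and oxysterol metabolism, 4 of 11 tested genes rose and 1 fell. These were 36.4% and 9.09%, beside 11.9% and 10.5% of all tested genes. Nr1h3, the gene of liver X receptor alpha, rose 1.42-fold (55.2 ± 2.54 to 78.3 ± 2.14 CPM; SD, n = 3), and its known target Lpcat3, a phospholipid acyltransferase, 1.46-fold (148 ± 7.49 to 216 ± 5.44 CPM; edgeR adjusted p of at most 1.39e-05 for both). Abca5, a transporter of the ABCA family, was lower (log2 -0.32; 22.9 ± 0.937 to 18.4 ± 0.879 CPM; adjusted p = 0.00475).

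In lipoprotein uptake and sterol transport, 2 of 13 rose and 2 fell. Each was 15.4%, beside 11.9% higher and 10.5% lower of all tested genes. The Gramd1 genes, which encode proteins that move cholesterol from the plasma membrane to the endoplasmic reticulum, were split. Gramd1a was 1.26-fold higher (27.0 ± 0.462 to 33.9 ± 2.35 CPM; SD, n = 3; edgeR adjusted p = 0.00229). Gramd1b was 1.21-fold lower (74.8 ± 7.15 to 61.8 ± 5.77 CPM; adjusted p = 0.0285), a call lost without control replicate 1 (0.0575), control replicate 3 (0.0814), knockout replicate 1 (0.0812) or knockout replicate 3 (0.114), with a range of 1.04e-04 to 0.114. Gramd1c, at 2.32 ± 0.479 and 3.28 ± 0.280 CPM, was called higher with an adjusted p of 0.0477. That call was lost with total count scaling (0.0511), by DESeq2 (0.0943), without control replicate 2 (0.188), control replicate 3 (0.126), knockout replicate 2 (0.115) or knockout replicate 3 (0.11), and without control replicate 3 and knockout replicate 2 together (0.195), the highest of its alternatives; the lowest was 0.0202.

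Set side by side, the share of genes called higher was 33.3% in synthesis (6 of 18), 25% in SREBP2 control (1 of 4), 16.7% in uptake and trafficking (1 of 6) and 75% in efflux and oxysterols (3 of 4), beside 11.9% of all tested genes. The share called lower was 11.1%, 0%, 16.7% and 0% in the same order, beside 10.5% of all tested genes. The median log2 fold changes were 0.061, -0.095, 0.00055 and 0.31 in the same order. That of SREBP2 control was -0.031 without control replicate 3, -0.036 without knockout replicate 1, -0.061 without knockout replicate 3 and -0.14 without knockout replicate 2. That of uptake and trafficking ran from -0.045 to 0.032 with 1 library left out. By library, the median deviation of the efflux and oxysterol genes from the control mean was 0.023, -0.047 and 0.071 on the log2 scale in control and 0.26, 0.34 and 0.40 in knockout libraries. That of the synthesis genes was 0.015, -0.029 and 0.013 in control and 0.036, 0.065 and 0.067 in knockout libraries. The SREBP2 control genes had -0.062, -0.047 and 0.10 in control and -0.17, 0.10 and -0.099 in knockout libraries, with the library that stands apart highest in each group. Without those 2 libraries, the numbers called up and down were 7 and 2 in synthesis, 1 and 1 in SREBP2 control, 1 and 2 in uptake and trafficking, and 2 and 0 in efflux and oxysterols, where 26.4% of all tested genes were called. Without control replicate 1, 1 efflux and oxysterol gene and 4 synthesis genes were called higher, where 14.2% of all tested genes were called. Without knockout replicate 3 the numbers were again 1 and 4 (14.3% of all tested genes), and by DESeq2 they were 2 and 6 (18.9%). SREBP2 control and uptake and trafficking kept 1 higher gene each in these settings. Differences between the roles were not tested.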

How the data were processed

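The authors deposited raw counts for 6 libraries, 1 row per Ensembl gene, in a table with 0 further sample columns. Build GRCm38, featureCounts 1.5.1, STAR 2.5.2b and DESeq2 1.16.0 are listed in the submitters' processing notes, without roles. How multi-mapping reads, strand and annotation release were handled is not given in the sources used here. Per the labels, libraries were ribosomal-RNA-depleted, stranded total RNA.

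Groups followed the genotype label. Symbols were matched by Ensembl identifier (49326 of 49671 genes). The test was edgeR 4.0.16 in R 4.3.3 (quasi-likelihood, robust, TMM, filterByExpr, group as the only term, Benjamini-Hochberg adjustment over 14946 genes). SEs were derived from the F statistic, and 95% intervals use the t distribution with its degrees of freedom, for 1 gene at a time. Coordinates, exon lengths and overlaps are from GENCODE M21 (GRCm38), and near-identical stretches (at least 95% over 200 bases) from BLAST 2.17.0. The members and lists were chosen with earlier results of these data known. All 32 members are named. Of the other pathway genes, the 3 called genes per list with the largest change and an average log2 CPM of at least 0 are named. Some genes, 1 that this rule would name among them, are not reported here.

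Alternatives were other scalings and filters, DESeq2 1.42.0, limma-voom (limma 3.58.1), an adjusted p of 0.01, and libraries left out. For the other pathway genes and Tcf7l2 these were added after seeing the data. On simulated data for the same comparison (14769 genes tested), edgeR recovered 55.1% of genes changed 1.25-fold, 77.6% at 1.5-fold, 90% at 2-fold and 100% at 4-fold. Far fewer genes were changed in the simulation than were called here, and each gene's spread was taken from the trend over all genes. These rates therefore need not hold for the real comparison.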

Additional observations from a re-analysis of the deposited data

How the results depend on the processing

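Of the 14 called members, 10 kept their call in all 14 alternatives computed for each gene, and 4 (Hmgcs1, Sc5d, Abca1 and Cyp27a1) lost it in at least 1; 4 of the 18 others (Dhcr7, Srebf2, Scap and Npc1) were called in at least 1. The count of called genes over all tested genes was 3346 and fell to 1934 at an adjusted p of 0.01; with 1 library left out it ran from 2145 (without control replicate 1) to 3475. At that stricter threshold 7 members were higher in place of 11; with 1 library left out the number ran from 7 (without control replicate 1 or knockout replicate 3) to 10. The number of lower members ran from 3 to 6 with 1 library left out (6 without knockout replicate 2) and was 5 without control replicate 3 and knockout replicate 2 together. Without knockout replicate 2, 22.9% of all tested genes were called, and without both libraries 26.4%, beside 22.4% with all libraries. The median log2 fold change of uptake and trafficking genes ran from -0.045 (without control replicate 2) to 0.032 with 1 library left out. Values near 0 changed sign for Npc2 (-0.023 without control replicate 2, 0.075 without control replicate 3, and 0.089 without control replicate 3 and knockout replicate 2 together) and Tm7sf2 (0.0028 without a filter on low counts, 0.0037 with a CPM of at least 1 in 3 libraries, 0.033 without control replicate 3 and knockout replicate 2 together, and -0.051 to 0.021 with 1 library left out). The cause was not tested. Scaling moved the median of all genes by less than 0.01. No paired analysis was possible because no replicate number shared by the groups stands in the labels. Depth limits Idi1, Cyp27a1 and Ch25h most, the members with the fewest counts and the largest SEs (0.12 to 0.14).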
